A study of Mus musculus with 3 samples.

Results

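Cd40 and 8 other genes for receptors of the tumour necrosis factor (TNF) receptor superfamily were followed in bone marrow derived dendritic cells of the mouse. They were chosen by gene name: Cd40, Tnfrsf1a, Tnfrsf1b, Tnfrsf4, Tnfrsf9, Tnfrsf11a, Tnfrsf14, Fas and Ltbr, which are 9 of the 55487 genes in the table, each with 1 row. RNA was sequenced from 3 cultures of wild-type cells, antigen-presenting cells grown from marrow progenitors: 1 treated with YB328 (a gut bacterial strain), 1 treated with P. vulgatus (the gut species Phocaeicola vulgatus), and 1 left untreated. The series is about how gut microbes augment PD-1 blockade against tumours, and the comparisons ask what each bacterium does to dendritic cell RNA. For the dose, the exposure time, the strain and age of the mice and whether the bacteria were alive, the sources used here give nothing. Each condition is 1 library, and no ratio between them can be set against a spread of replicates or given a p-value.

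Receptors of this superfamily sit in the cell membrane and bind trimeric ligands of the TNF family on other cells or in solution. Most members recruit TRAF adaptor proteins and switch on the canonical or the noncanonical NF-kB pathway, while TNFR1 (Tnfrsf1a) and Fas carry a death domain and can also start cell death. On dendritic cells CD40 is best known as the receptor through which helper T cells, carrying CD40 ligand, license the cell to prime killer T cells, and CD40 and Tnfrsf9 are both established surface markers of activation. CD40, LTBR and RANK (Tnfrsf11a) are the members known above all for noncanonical NF-kB signalling through NIK and RelB.

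Promoter letters are shown for the receptor genes with the highest level and the largest ratio, Tnfrsf9 and Tnfrsf1b, and for Fas, which passed the rule of size described below in no comparison. Each line holds the 250 bases before a RefSeq gene start (assembly GRCm38.p6), 5′ to 3′ on the strand of the gene. The windows are chr4:150927749-150927998 on the plus strand for Tnfrsf9, chr4:145246871-145247120 on the minus strand for Tnfrsf1b and chr19:34290409-34290658 on the plus strand for Fas. Capitals mark matches to 3 motifs searched on both strands: the NF-kB motif, the core of the interferon-stimulated response element (GAAA, any 2 bases, GAAA) and the gamma-activated sequence (TTCNNNGAA).
Tnfrsf9: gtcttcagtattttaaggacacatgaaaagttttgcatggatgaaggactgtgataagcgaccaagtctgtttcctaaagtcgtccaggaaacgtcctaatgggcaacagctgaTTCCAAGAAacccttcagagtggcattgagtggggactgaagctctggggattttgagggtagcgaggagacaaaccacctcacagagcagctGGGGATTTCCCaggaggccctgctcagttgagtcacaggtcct
Tnfrsf1b: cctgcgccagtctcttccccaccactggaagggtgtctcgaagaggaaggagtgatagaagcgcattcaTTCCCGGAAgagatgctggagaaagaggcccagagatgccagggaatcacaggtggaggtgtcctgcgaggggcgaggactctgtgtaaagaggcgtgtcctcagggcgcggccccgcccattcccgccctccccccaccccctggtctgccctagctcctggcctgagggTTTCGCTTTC
Fas: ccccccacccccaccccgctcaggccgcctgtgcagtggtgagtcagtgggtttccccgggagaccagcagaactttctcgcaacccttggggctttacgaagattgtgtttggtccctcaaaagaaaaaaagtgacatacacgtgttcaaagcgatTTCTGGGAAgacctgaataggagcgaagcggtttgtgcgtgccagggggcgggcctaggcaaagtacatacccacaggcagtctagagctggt

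The Tnfrsf9 window held 2 overlapping NF-kB matches, GGGGATTTCC and GGGATTTCCC, that begin 43 and 42 bases before the start, and the gamma-activated match TTCCAAGAA at 136 bases. The Tnfrsf1b window held a response element core in reverse, TTTCGCTTTC, in the last 10 bases before the start, and TTCCCGGAA at 181 bases. The Fas window held TTCTGGGAA at 93 bases. Neither the Fas window nor the Tnfrsf1b window held an NF-kB match, and no window was given for Cd40. In all, 9 windows of 8 members were searched over 300 bases each, 250 before and 50 after the start, and 1 held an NF-kB match, 2 a response element core (Tnfrsf1b and Tnfrsf14) and 4 a gamma-activated sequence (Tnfrsf1b, Tnfrsf9, Tnfrsf1a and Fas). Among all 32851 windows given, the shares with a match were 4.51%, 3.44% and 8.3%. A match describes letters only. The other Tnfrsf9 window, chr4:150919905-150920154, held none of the 3 motifs, and counts per gene do not tell which start was used; in GENCODE the gene begins upstream of both.

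The libraries differed in depth and makeup. Deposited counts summed to 26924006 with YB328, 26660870 with P. vulgatus and 15538133 in the untreated library. Of these counts 96.6%, 95.3% and 57.9% fell on nuclear protein-coding genes without Lars2. Ribosomal RNA genes other than mitochondrial ones took 0.386%, 0.789% and 9.54%. Mitochondrial protein-coding genes took 0.577%, 0.748% and 12.8%, and mitochondrial ribosomal RNA genes took 0.321%, 0.498% and 4.51%. Lars2 alone took 0.157%, 0.309% and 6.72%. What made the untreated library unlike the others was not tested. With scaling on those nuclear genes alone, Cd40, Tnfrsf1a, Tnfrsf1b and Tnfrsf9 still passed with both bacteria. All 7 dendritic cell markers were detected in every library, 1 rose and 2 fell with each bacterium, and Itgax (CD11c) had 75.5, 22.6 and 272 CPM while H2-Ab1 (a class II chain) had 2185, 2700.01 and 2222 CPM. Of 8 neutrophil markers 6 reached 5 CPM in a library and all 6 fell with both bacteria; the 8 summed to 293 CPM with YB328, 330.4 CPM with P. vulgatus and 4393 CPM untreated. Of the 6 macrophage markers 3 rose with each bacterium (Adgre1, Cd68 and Fcgr1) and 0 fell, and they summed to 1599, 910.2 and 406 CPM in the same order of libraries. Csf1r, C1qa and Mertk did not pass against the untreated library, with Csf1r at 279.98 CPM, 215 CPM and 246 CPM. The 6 B cell markers summed to 9.03, 10.7 and 3.68 CPM, with Pax5 at 0 counts with YB328 and in the untreated library. The 6 T and NK cell markers summed to 3.12, 2.16 and 2.94 CPM, with Ncr1 at 0 counts in the same pair of libraries. Of the 6 stroma and endothelium markers 1 rose and 4 fell with YB328, and 2 rose and 4 fell with P. vulgatus. They summed to 128, 93.3 and 549 CPM but did not move together: Kdr, an endothelial receptor, had 104.5, 65.5 and 0.194 CPM (3 counts untreated), while the collagen gene Col1a1 had 2.27, 2.08 and 204 CPM and Col1a2 had 4.55, 3.10 and 281 CPM. Between the bacteria, 1 dendritic cell marker (Itgax), 2 macrophage markers, 1 B cell marker and 2 of stroma and endothelium passed as higher with YB328. Lower with YB328 were 1 neutrophil marker and 1 of stroma and endothelium. Of all tested genes 6.29% passed in that comparison. The part of cells other than dendritic cells in the ratios below was not tested, and in bulk RNA fewer cells of a type and less RNA per cell cannot be told apart.

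Levels of a receptor are in CPM, which is counts over a TMM-scaled library size, and levels are compared between genes only in TPM, which is corrected for gene length. A gene is said to have risen or fallen when 3 conditions held: 5 CPM or more in some library, a difference of 2-fold or more once 0.5 CPM was added to each value, and an exact 95% interval of the count ratio that left out 1. That interval covers counting error only. All 9 receptor genes were detected in all 3 libraries with whole counts, and 8 of 9 reached 5 CPM. Tnfrsf14 did not, and Tnfrsf4 did so in the untreated library alone. The reads of 1 culture per condition leave differences between cultures unmeasured.

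**Figure D1:**
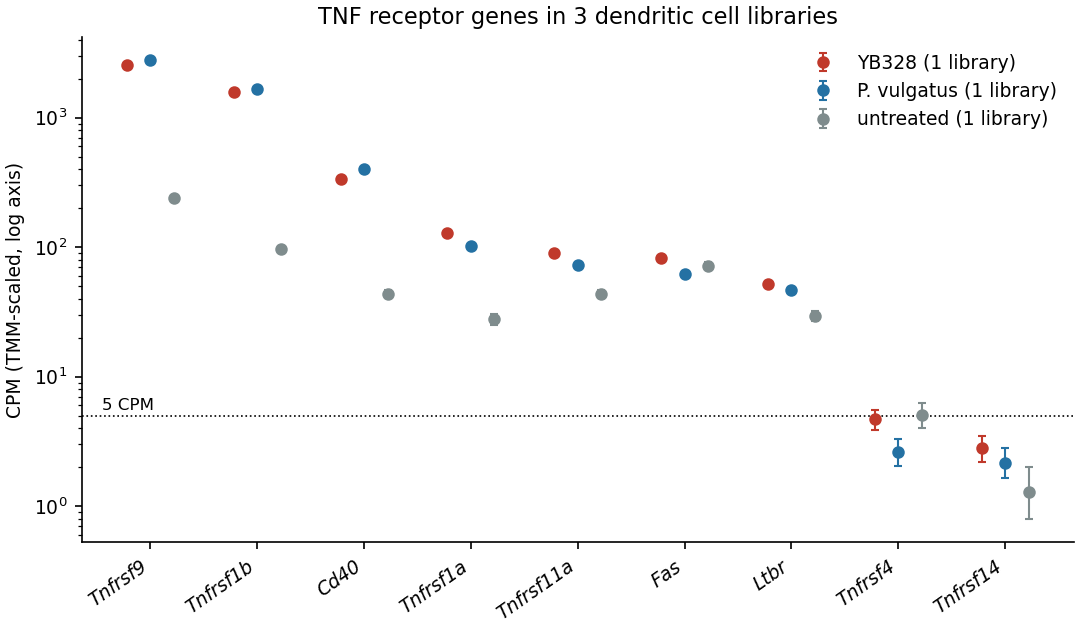
CPM of each receptor gene (log axis) in the YB328, P. vulgatus and untreated libraries, with exact 95% Poisson intervals of the count as bars; most bars are smaller than the points. Tnfrsf9, Tnfrsf1b, Cd40 and Tnfrsf1a stood well above the untreated library with either bacterium, Fas lay within 1.31-fold in all 3 by CPM, and Tnfrsf4 and Tnfrsf14 lay near or under 5 CPM.

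With YB328, 5 of the 8 receptor genes tested rose and 0 fell, against the untreated library, where 43% of all 10699 tested genes passed, 24.7% as higher and 18.3% as lower. With P. vulgatus, 4 of 8 rose and 0 fell, beside 44% of all tested genes, 25.2% higher and 18.8% lower. The median log2 ratio of the 8 was 1.63 with YB328 and 1.30 with P. vulgatus, beside 0.17 and 0.15 over all tested genes. Both comparisons use the same untreated library, so they are not independent of each other. Higher genes made up 57.5% of those past the rule with YB328 and 57.2% with P. vulgatus; computed from TPM these shares were 74.3% and 69.7%.

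The receptors for costimulatory ligands included the most abundant member. Tnfrsf9 (ENSMUSG00000028965.13, chromosome 4, 150914562 to 150946102, plus strand) encodes CD137, a receptor best known as a costimulator of T cells. It had 2558 CPM with YB328 and 2787 CPM with P. vulgatus, against 240.1 CPM in the untreated library, from 69716, 73613 and 3721 counts. Both bacterial libraries were high and close to each other. Tnfrsf9 rose 10.7-fold with YB328 (95% interval 10.3 to 11.0) and 11.6-fold with P. vulgatus (95% interval 11.2 to 12.0). By TPM the ratio was 16.6 with each. The median log2 ratio of all tested genes by TPM was 0.61 with YB328 and 0.49 with P. vulgatus. In TPM Tnfrsf9 ranked 64th among all genes with YB328, 70th with P. vulgatus and 665th in the untreated library. Most of the gene overlaps Camta1 on the opposite strand, and since strand is not marked by the kit, reads of the overlap cannot be told apart. Camta1 itself had 104, 85 and 52 counts in the same order.

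Cd40 (ENSMUSG00000017652.16, chromosome 2, 165055627 to 165072948, plus strand) had 338 CPM with YB328 and 399 CPM with P. vulgatus, against 43.6 CPM in the untreated library. The counts behind these were 9216, 10528 and 676. Cd40 rose with each bacterium, by 7.75-fold with YB328 (95% interval 7.17 to 8.39) and 9.14-fold with P. vulgatus (95% interval 8.45 to 9.89), and only 4.03% and 3.61% of tested genes had a higher log2 ratio. The 5 genes whose profile over the 3 libraries lay closest to that of Cd40, out of 6892 with at least 20 CPM in a library, were Socs3, Sod2, Parp12, Atg4d and Inpp5b. Their distances from Cd40, in centred log2 CPM, ran from 0.0356 for Socs3 to 0.0806 for Inpp5b, and a likeness over 3 libraries is a description only. Socs3, an inhibitor of cytokine receptor signalling, had 848 CPM with YB328, 1029 CPM with P. vulgatus and 109.9 CPM untreated.

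Tnfrsf4 (ENSMUSG00000029075.6, chromosome 4, 156013843 to 156016612, plus strand) encodes OX40, a costimulatory receptor of activated T cells. It had 4.66 CPM with YB328 and 2.61 CPM with P. vulgatus, against 5.03 CPM in the untreated library, from 127, 69 and 78 counts. It did not pass in any comparison, at ratios of 0.926 with YB328 (95% interval 0.693 to 1.24, and 1.29 by TPM) and 0.519 with P. vulgatus (95% interval 0.370 to 0.727). Tnfrsf14 (ENSMUSG00000042333.16, chromosome 4, 154921933 to 154928563, minus strand), the herpesvirus entry mediator, which binds LIGHT and also BTLA, was the lowest member. It had 2.79 CPM with YB328, 2.16 CPM with P. vulgatus and 1.29 CPM in the untreated library, and was too low for the rule.

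The receptors of TNF differed in size of change. Tnfrsf1b (ENSMUSG00000028599.10, chromosome 4, 145213463 to 145246870, minus strand) encodes TNFR2, which has no death domain and responds best to membrane-bound TNF. It had 1589 CPM with YB328 and 1660.2 CPM with P. vulgatus, against 97.4 CPM in the untreated library. It rose 16.3-fold with YB328 (95% interval 15.5 to 17.2) and 17.0-fold with P. vulgatus (95% interval 16.2 to 17.9), the largest ratios among the 9 genes, and only 1.60% and 1.67% of tested genes had a higher log2 ratio.

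Tnfrsf1a (ENSMUSG00000030341.17, chromosome 6, 125349362 to 125362484, plus strand), the gene of TNFR1, had 129 CPM with YB328 and 101 CPM with P. vulgatus, against 27.7 CPM in the untreated library. It rose 4.65-fold with YB328 (95% interval 4.21 to 5.15) and 3.66-fold with P. vulgatus (95% interval 3.30 to 4.06). The ratio of Tnfrsf1b to Tnfrsf1a within a library needs no scaling between libraries. By TPM it was 6.47 with YB328 and 8.53 with P. vulgatus, against 1.88 in the untreated library. By counts the ratio was 3.51 times that of the untreated library with YB328 (95% counting interval 3.13 to 3.92) and 4.66 times with P. vulgatus (95% counting interval 4.15 to 5.22).

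Fas (ENSMUSG00000024778.13, chromosome 19, 34290666 to 34327772, plus strand), the other death-domain receptor among the 9, did not pass in any comparison. It had 81.9 CPM with YB328 and 62.6 CPM with P. vulgatus, against 71.8 CPM in the untreated library. The ratios were 1.14 with YB328 (95% interval 1.06 to 1.23) and 0.871 with P. vulgatus (95% interval 0.807 to 0.941); by TPM Fas stood 1.70-fold higher with YB328, and with P. vulgatus it had 64.9 TPM against 54.2 TPM untreated. By TPM the log2 ratio of Fas was 0.76 with YB328 and 0.26 with P. vulgatus, beside medians of 0.61 and 0.49 over all tested genes. The small misc_RNA gene Gm27818 lies inside Fas on the same strand.

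Tnfrsf11a and Ltbr, named above with Cd40 for noncanonical NF-kB signalling, had ratios near 2 or under it. Tnfrsf11a (ENSMUSG00000026321.7, chromosome 1, 105780718 to 105847981, plus strand) encodes RANK, the receptor of osteoclast formation, first described as a survival receptor of dendritic cells. It had 90.8 CPM with YB328 and 73.1 CPM with P. vulgatus, against 43.4 CPM in the untreated library. It rose 2.09-fold with YB328 (95% interval 1.92 to 2.28), just past the limit at a log2 ratio of 1.06, and did not pass with P. vulgatus, at 1.68-fold (95% interval 1.54 to 1.84). With scaling and comparison on nuclear protein-coding genes alone the log2 ratio with YB328 was 0.91, and with TPM it was 0.95, so the call was lost in both.

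Ltbr (ENSMUSG00000030339.7, chromosome 6, 125306571 to 125313885, minus strand) encodes the lymphotoxin beta receptor, which is needed for lymph node formation and for upkeep of some splenic dendritic cells. It had 52.2 CPM with YB328 and 46.4 CPM with P. vulgatus, against 29.6 CPM in the untreated library. At 1.77-fold with YB328 (95% interval 1.59 to 1.97) and 1.57-fold with P. vulgatus (95% interval 1.41 to 1.75) it did not pass. With TPM, where the median log2 ratio of all tested genes was 0.61 in place of 0.17, Ltbr passed with YB328 at a log2 ratio of 1.19.

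**Figure D2:**
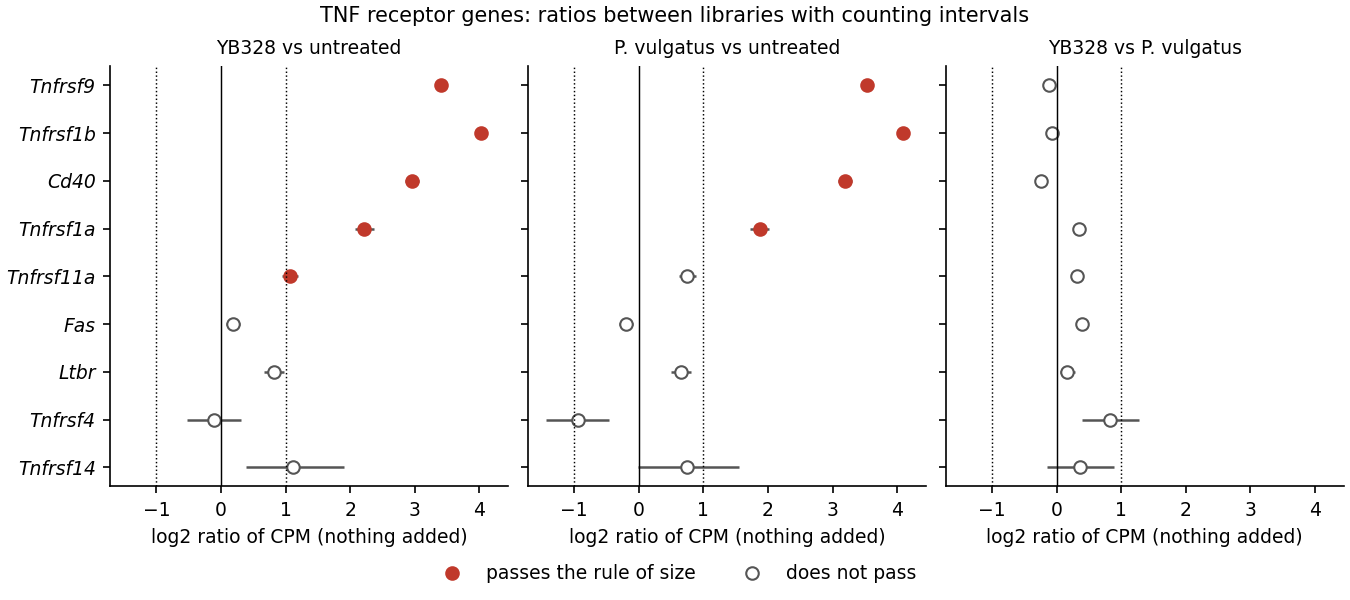
Log2 ratio of CPM, with nothing added, for each receptor gene in the 3 comparisons; horizontal lines are exact 95% counting intervals, dotted lines mark ratios of 2 in either direction, and filled points passed the rule of size. Tnfrsf9, Tnfrsf1b, Cd40 and Tnfrsf1a lie far to the right with each bacterium, and every gene lies between the dotted lines for YB328 against P. vulgatus. Tnfrsf14 with YB328 lies past 1 here but stayed under 5 CPM, and with 0.5 CPM added its log2 ratio was 0.88, under the 2-fold limit.

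Between the bacteria, 0 of the 8 tested receptor genes passed, where 6.29% of all tested genes passed, 3.4% as higher with YB328 and 2.89% as lower. For Cd40 the YB328 level was 0.848 times that with P. vulgatus (95% interval 0.825 to 0.872). The corresponding ratios were 0.918 for Tnfrsf9 (95% interval 0.908 to 0.927) and 0.957 for Tnfrsf1b (95% interval 0.945 to 0.970). The other 6 receptor genes were on the YB328 side, from 1.12 for Ltbr (95% interval 1.04 to 1.21) to 1.78 for Tnfrsf4 (95% interval 1.32 to 2.43), with Tnfrsf1a at 1.27 (95% interval 1.21 to 1.34) and Fas at 1.31 (95% interval 1.23 to 1.39). The interval of Tnfrsf14, 0.905 to 1.85, spanned 1. With TPM the 3 genes that were lower with YB328 moved towards equality, at ratios of 0.941 for Cd40, 1.001 for Tnfrsf9 and 1.02 for Tnfrsf1b, so the direction of the last pair depends on the unit. Tnfrsf4 passed with TPM alone, at a log2 ratio of 1.01.

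The order of the 9 receptor genes by TPM was the same in both bacterial libraries: Tnfrsf9, Tnfrsf1b, Cd40, Fas, Tnfrsf1a, Tnfrsf11a, Ltbr, Tnfrsf4 and Tnfrsf14. In the untreated library Fas stood second, after Tnfrsf9 and before Cd40, and Tnfrsf1a stood seventh, after Ltbr. Tnfrsf9 had 2004 TPM with YB328 and 2002 TPM with P. vulgatus, against 120.7 TPM untreated. Fas had 91.8 TPM, 64.9 TPM and 54.2 TPM in the same order. Neighbours whose counting intervals overlapped were Tnfrsf11a with Ltbr and Tnfrsf4 with Tnfrsf14 in the P. vulgatus library, and Ltbr with Tnfrsf1a in the untreated library. With 1 library each there is no spread between cultures to set these orders against.

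The 9 genes summed to 3014 TPM with YB328 and 2957.5 TPM with P. vulgatus, against 287 TPM in the untreated library. They took 0.491% and 0.509% of all counts in the bacterial libraries and 0.0558% in the untreated one. Tnfrsf9 made up 66.5% of the summed TPM with YB328 and 67.7% with P. vulgatus, against 42.1% untreated. Fas made up 3.05% with YB328 and 2.20% with P. vulgatus, against 18.9% untreated. The share of Cd40 lay within a narrow range, at 10.2%, 11.0% and 12.0% in the same order. Within a library, the TPM ratio of Tnfrsf9 to Fas was 21.8 with YB328 and 30.8 with P. vulgatus, against 2.23 untreated.

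**Figure D3:**
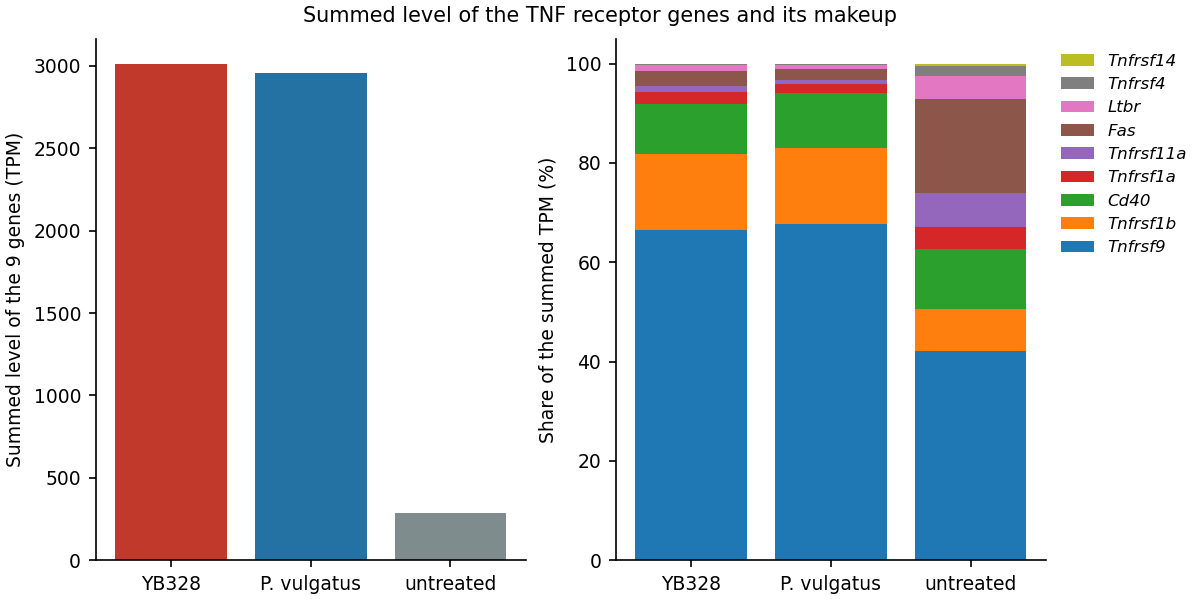
Summed TPM of the 9 receptor genes in each library (left) and the share of each gene in that sum (right), for YB328, P. vulgatus and untreated cells, 1 library each. The sum was 3014 and 2957.5 TPM with the bacteria and 287 TPM untreated, and the Tnfrsf9 share was 66.5%, 67.7% and 42.1%.

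The ligands of these receptors were read in the same cells. Of 11 genes for ligands or binding partners 7 reached 5 CPM in a library, and 3 rose and 1 fell with either bacterium, 4 of 7 in each case beside 43% and 44% of all tested genes. Tnfsf4, the ligand of Tnfrsf4, rose to 65.3 CPM with YB328 and 78.9 CPM with P. vulgatus, against 5.49 CPM in the untreated library. Tnfsf9, the ligand of Tnfrsf9, rose to 53.5 CPM and 102.9 CPM, against 15.7 CPM untreated. Tnfsf14 (LIGHT), which binds Tnfrsf14 and Ltbr, rose 2.16-fold with YB328 (95% interval 1.61 to 2.95) and stood at 1.92-fold with P. vulgatus, where it did not pass. Ltb, the membrane anchor of the Ltbr ligand, fell to 1.76 CPM with YB328 and 1.55 CPM with P. vulgatus, against 44.7 CPM untreated. Btla, a binding partner of Tnfrsf14, rose 5.57-fold with P. vulgatus and stood at 1.79-fold with YB328, where it did not pass. By TPM the ratio of Btla was 2.91 with YB328 and 9.34 with P. vulgatus, and that of Tnfsf14 with P. vulgatus was 2.25. Tnf did not pass, at 81.1, 101.7 and 64.9 CPM in the same order. Between the bacteria, Btla was lower with YB328, at 7.52 CPM against 23.4 CPM with P. vulgatus, and Lta was higher with YB328, at 8.99 CPM against 2.35 CPM. Cd40lg and Tnfsf11, the ligands of Cd40 and Tnfrsf11a, had 0 counts in all 3 libraries, which allows up to 0.110 CPM with YB328, 0.114 CPM with P. vulgatus and 0.194 CPM untreated at 3 counts. Fasl had 5 counts with YB328 and 0 in the other libraries, and Cd160 had 0, 2 and 25 counts with YB328, with P. vulgatus and untreated.

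Of 19 other genes of the receptor superfamily 9 reached 5 CPM in a library, and 5 of these rose with YB328 and 6 with P. vulgatus, while 0 fell with YB328 and 1 with P. vulgatus. Over all tested genes 24.7% rose and 18.3% fell with YB328, and 25.2% rose and 18.8% fell with P. vulgatus. Tnfrsf8 (CD30) had 342 counts with YB328 and 425 with P. vulgatus, against 1 untreated, ratios of 194 (95% interval 34.7 to 7703) and 249.3 (95% interval 44.5 to 9871). Tnfrsf22 and Tnfrsf23, mouse decoy receptors for TRAIL, and their relative Tnfrsf26 rose with both bacteria. Tnfrsf23 had 105.3 CPM with YB328 and 153 CPM with P. vulgatus, against 16.1 CPM untreated, and Tnfrsf26 had 95.9 CPM and 107 CPM, against 13.4 CPM. Tnfrsf22 had 11.8 CPM with YB328 and 16.0 CPM with P. vulgatus, against 0.324 CPM untreated. These relatives are alike in sequence, and the counts of Tnfrsf22 and Tnfrsf23 were not whole, so how reads were split among them is uncertain.

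Tnfrsf12a, the receptor of TWEAK, rose 3.47-fold with YB328 (95% interval 2.57 to 4.76) and 2.23-fold with P. vulgatus (95% interval 1.63 to 3.10). Tnfrsf21 rose 2.46-fold with P. vulgatus (95% interval 2.13 to 2.86) and stood at 1.98-fold with YB328, where it did not pass. By TPM Tnfrsf21 stood past 2-fold with both, at 2.50-fold with YB328 and 2.89-fold with P. vulgatus. Relt, a receptor with no established ligand of the TNF family, fell to 46.1 CPM with P. vulgatus, against 94.7 CPM untreated, and stood at 69.1 CPM with YB328. By TPM its ratio with P. vulgatus was 0.572, which is under a 2-fold fall. Tnfrsf13b (TACI, a receptor of BAFF and APRIL) had 52.2 CPM with YB328, 91.0 CPM with P. vulgatus and 47.9 CPM untreated, and Tnfrsf18 (GITR) had 18.8, 16.1 and 22.5 CPM, and neither passed. By TPM the ratio of Tnfrsf13b with P. vulgatus was 2.07, just over 2-fold.

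Among 30 genes of signalling below these receptors, all of which reached 5 CPM in a library, 12 rose and 2 fell with each bacterium. These 14 of 30 lie near the 43% and 44% of all tested genes that passed. The median log2 ratio was 0.85 with YB328 and 0.56 with P. vulgatus, beside 0.17 and 0.15 over all tested genes. With YB328 the largest ratios were those of Ikbkg (NEMO), at 6.91-fold, Tnfaip3 (A20, a brake on NF-kB), at 5.13-fold, Rnf31, at 4.84-fold, and Traf2, at 3.88-fold. With P. vulgatus they were those of Tnfaip3, at 8.52-fold, Ikbkg, at 7.31-fold, Traf2, at 5.39-fold, and Rnf31, with 97.0 CPM against 25.5 CPM untreated. The order depends on the unit: by TPM Rnf31 stood at 2.49-fold with YB328 and 1.93-fold with P. vulgatus, and Tank, at 5.38-fold and 5.42-fold, and Traf3, at 4.82-fold and 5.21-fold, stood above it. Tab2 and Tab3, adaptors of the kinase TAK1, fell with YB328, to 31.8 CPM against 79.6 CPM untreated and to 3.67 CPM against 9.36 CPM untreated. Traf5 and Birc2 fell with P. vulgatus, to 15.9 CPM against 45.3 CPM untreated and to 48.0 CPM against 112 CPM untreated. By TPM none of these 4 falls reached 2-fold: the ratios were 0.561 for Tab2 and 0.894 for Tab3 with YB328, and 0.590 for Traf5 and 0.686 for Birc2 with P. vulgatus. Between the bacteria 0 of 30 passed, where 6.29% of all tested genes passed.

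**Figure D4:**
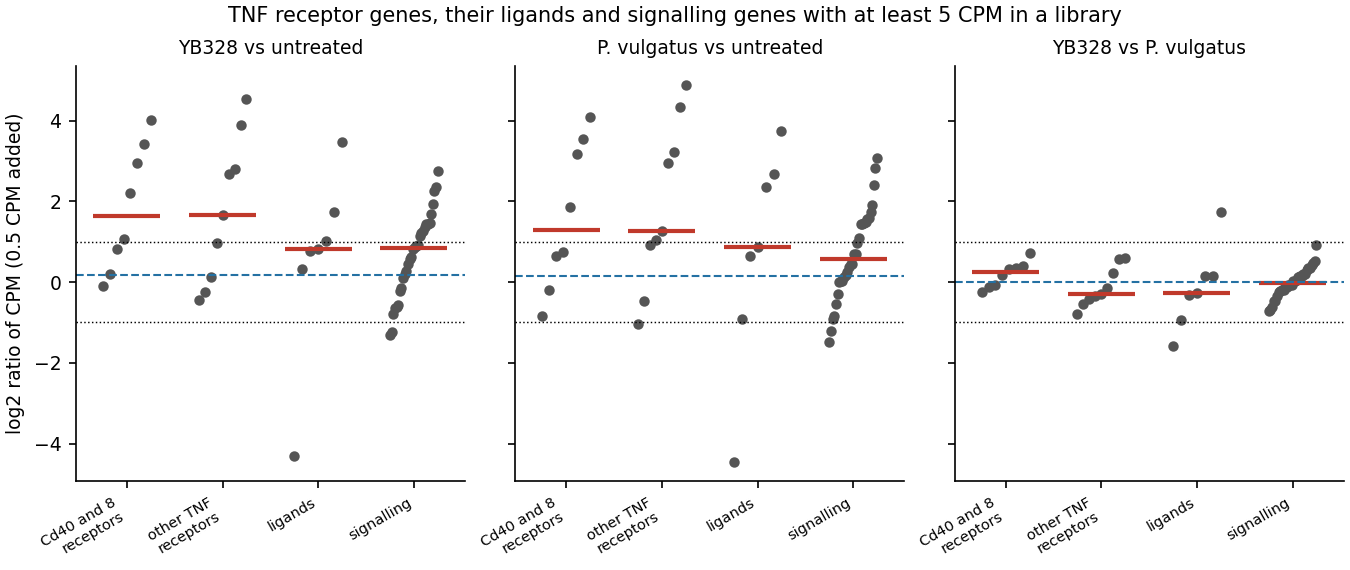
Log2 ratio of CPM (0.5 CPM added) for the tested genes among Cd40 and its 8 companion receptors, other TNF receptors, ligands and signalling genes; red bars are list medians, the dashed line is the median of all tested genes and dotted lines mark the limits of the rule. Against the untreated library each list median lies above the dashed line, and the single ligand far below it is Ltb; between YB328 and P. vulgatus all points except Lta and Btla lie within the dotted lines.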

How the data were processed

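Total RNA of 3 libraries was made into cDNA with SMART-Seq v4 and into libraries with Nextera XT, per the labels' protocols. Reads were processed with DRAGEN against GRCm38, per the submitters' processing notes; the version and counting settings were not found in the sources used here. Per the file headers, the authors' table holds TPM and counts per gene. Since some counts are not whole, the deposited values are estimated counts and were rounded for intervals and thinning.

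Counts were scaled by TMM (edgeR 4.0.16 in R 4.3.3, size factors only), and ratios, exact Clopper-Pearson intervals of count ratios and Poisson intervals were computed in Python 3.11.15 with scipy 1.17.1. With 1 library per group there is no test across libraries. The rule of size was applied to all genes and was tested on simulated data with counting noise only. The simulation held no differences between cultures, so it cannot tell how often these would pass the rule. A count of 0 allows 3 counts. Counting intervals treat amplified reads as independent, which they are not. Of 55487 identifiers 54435 were in GENCODE M21, all with the same coordinates, and the 9 receptor genes were among them. Promoters of 8 of the 9 are from RefSeq (GRCm38.p6); the NF-kB motif searched is the usual degenerate one of 10 letters.

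The members, gene lists, rule and alternatives were chosen with earlier results of these data known. Named were all members, their ligands, other receptors with at least 5 CPM, up to 4 signalling genes per direction and comparison, and the 5 genes closest to Cd40 without clone-named models. Alternatives were 2 other scalings of all genes, scaling and comparison on nuclear protein-coding genes without Lars2, TPM, no minimum or 20 CPM, 0.1 or 2 CPM added, and thinning to the shallowest library (seed 1).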

Additional observations from a re-analysis of the deposited data

How the results depend on the processing

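Over 9 alternatives and 27 ratios of the receptor genes, 239 of 243 values kept their side of the rule and 0 called values changed sign. The alternatives that changed only the minimum CPM left every one of these log2 ratios as it was, so they add little to this tally. Tnfrsf11a with YB328 no longer passed with nuclear protein-coding genes alone (log2 ratio 0.91) or with TPM (0.95), and Ltbr with YB328 passed with TPM (1.19). With TPM the number of receptor genes that passed between YB328 and P. vulgatus was 1 (Tnfrsf4, log2 ratio 1.01) in place of 0. Cd40 ranged from 2.80 with nuclear genes alone to 3.15 with TPM for YB328 against untreated, and from 3.03 to 3.23 for P. vulgatus. The direction of Fas with P. vulgatus, which did not pass, turned with TPM, to 0.26 from -0.20, and that of Tnfrsf4 with YB328, which did not pass either, to 0.35 from -0.10.

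The median log2 ratio of all tested genes with YB328 and with P. vulgatus was 0.61 and 0.49 with TPM, 0.31 and 0.27 with a minimum of 20 CPM, and 0.05 and 0.02 with nuclear genes alone, beside 0.17 and 0.15. In every comparison the genes tested numbered 7081 with a minimum of 20 CPM, 23716 with no minimum and 9408 with TPM, in place of 10699. Of these, 977, 3570 and 1199 fell with YB328 in the same order, in place of 1955. The shares of tested genes that passed in either direction with YB328 were 40.7%, 30.5% and 49.7%, in place of 43%. With P. vulgatus 1046 fell with a minimum of 20 CPM and 3647 with no minimum, in place of 2015. There 41.6% and 31.5% of tested genes passed in either direction, in place of 44%. Between the bacteria 149, 780 and 230 genes were higher with YB328 with a minimum of 20 CPM, no minimum and 2 CPM added, in place of 364. In the same order 126, 767 and 189 were lower, in place of 309. The shares of tested genes that passed in either direction were 3.88%, 6.52% and 3.92%, in place of 6.29%. By the rule itself, the minimum sets which genes are tested, and a larger added value makes the ratios of low genes smaller in size. What else moved these values was not tested. No paired analysis was possible because each group has 1 library.

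Depth limits Tnfrsf14 and Tnfrsf4 most: their lowest counts were 20 and 69, and intervals on their ratios were the widest among the 9 genes.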

Other observations

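The deposited counts and TPM values of a gene together imply the mean transcript length used for it in each library, and this implied length was compared between libraries relative to the median of the 8225 genes with at least 5 CPM in all 3. Tnfrsf11a had an implied length 1.43 times that of the untreated library with YB328 and 1.46 times with P. vulgatus. On the log2 scale these shifts, 0.52 and 0.55, lay between the 5th and 95th percentiles of all these genes, which were -0.55 and 0.79 with YB328 and -0.51 and 0.78 with P. vulgatus. Tnfrsf9 went the other way, with an implied length 0.858 times that of the untreated library with YB328 and 0.877 times with P. vulgatus, beside TPM ratios of 16.6 in both comparisons. Between YB328 and P. vulgatus the implied lengths of the 7 receptor genes with at least 5 CPM in all 3 libraries differed by less than 5%. Transcripts were not analysed here.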
